A study of Gallus gallus with 14 samples.

Results

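Retinoic acid is made in the eye from vitamin A, and the retina, the pigment epithelium and the choroid all handle it. Retinaldehyde dehydrogenases oxidise retinal to retinoic acid, CYP26 enzymes break it down, cellular binding proteins carry it, and nuclear receptors of the RAR and RXR families switch genes on when they bind it. In chicks this signal has long been studied in the control of eye growth, where synthesis in the retina and in the choroid is known to respond to visual conditions. The 9 genes described here are ALDH1A1, ALDH1A2, ALDH1A3 and CYP1B1 for synthesis, CYP26A1 for breakdown, CRABP1 for binding, and RARA, RARB and RXRA as receptors. They were chosen by symbol, and all 9 were found among the 18631 genes of the table. Gene starts and ends are given as deposited, on the GRCg6a build named in the submitters' processing notes.

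RNA was measured in retinas of wild type White Leghorn chickens, in 7 lens-induced myopia libraries and 7 control libraries. Birds of the lens group were 3 days old when -10 D lenses were put on and wore them for 3 days, and the age label of every library reads postnatal day 3. A minus lens moves the plane of focus behind the retina, and the growing eye lengthens towards it. The labels do not say what the control eyes wore, whether each library is a separate bird, or the sex of any bird, so the p-values reflect how far these libraries vary, and part of that variation may be technical.

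Values are deposited CPM, read counts scaled to a common library total, with the constant offset of 0.0001 taken off. The step worth 1 read gave 30.8 to 41.4 M reads per library, of which the listed genes took 9.68 to 13.8 M reads. A floor of 3 reads corresponded to 0.0724 to 0.0973 CPM, and such floors describe counting error alone, because the labels name no molecular identifiers that would tell PCR copies apart. All 7 photoreceptor markers were present, with summed levels of 661 to 1075 CPM in lens and 810.2 to 1155 CPM in control libraries. In the test of lens against control 0 of the 7 passed, and all 7 had negative fold changes, where 63.3% of all genes tested did. The 11 pigment epithelium markers summed to 30.9 to 35.5 CPM in lens and 33.7 to 44.3 CPM in control libraries. The 7 markers of choroid and connective tissue summed to 1.04 to 1.77 CPM in lens and 1.32 to 2.14 CPM in control libraries, and COL1A1 was at 0 in every lens library. Of 9 red blood cell markers 1 was listed, SLC4A1, at 0 in every lens library and at up to 0.0549 CPM in controls. The 5 Müller glia markers summed to 1201 to 1292 CPM in lens and 1191 to 1418 CPM in control libraries. Of these 0 passed, and all 5 also had negative fold changes.

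The W chromosome of birds is carried by females, and its transcript HINTW reached 116.8 to 145.04 CPM in 5 libraries, while the remaining 9 held 0.0243 to 0.549 CPM. The 5 libraries with W-linked RNA were lens replicate 4 and control replicates 2, 3, 4 and 7, which is 1 of 7 lens and 4 of 7 control libraries. Treatment and W-linked RNA are therefore partly mixed, and lens differences below are also given from a model that holds W-linked RNA as a covariate, and from the W-negative set, the 9 libraries that lack it (6 lens and 3 control). ALDH1A1 is the only one of the 9 genes on chromosome Z, of which male birds carry an extra copy.

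Across the 9 genes, ALDH1A1 and ALDH1A2 had higher mean levels in lens than in control retinas, the other 7 had lower ones (CYP26A1 and CRABP1 turned positive under median ratio scaling), and none passed the test of lens against control. The largest differences were in ALDH1A1, with a mean 1.36 times that of controls, and in CYP1B1, with a mean 0.692 times that of controls. With limma and Benjamini-Hochberg adjustment over all 14259 genes tested, 0 of 9 had an adjusted p under 0.05, where 0.0771% of all genes did. At an unadjusted p under 0.05 there were 2 of 9, ALDH1A1 higher and CYP1B1 lower, where 13.5% of all genes were (3.03% higher and 10.5% lower). The ranges of the lens and control libraries overlapped for every one of the 9, and among all genes tested 0.266% did not overlap. The median log2 fold change was -0.10 over the 9 genes and -0.04 over all genes tested. With W-linked RNA as a covariate 0 of 9 passed (0.133% of all genes), and 1 of 9, RARB, had an unadjusted p under 0.05 (11.2%). In the W-negative set 0 of 9 passed (0.014%), and ALDH1A2, CYP1B1 and CRABP1 had an unadjusted p under 0.05, 3 of 9 against 8.08% of all genes. These are whole retinas, in which fewer cells of a type and less RNA per cell cannot be told apart.

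**Figure D1:**
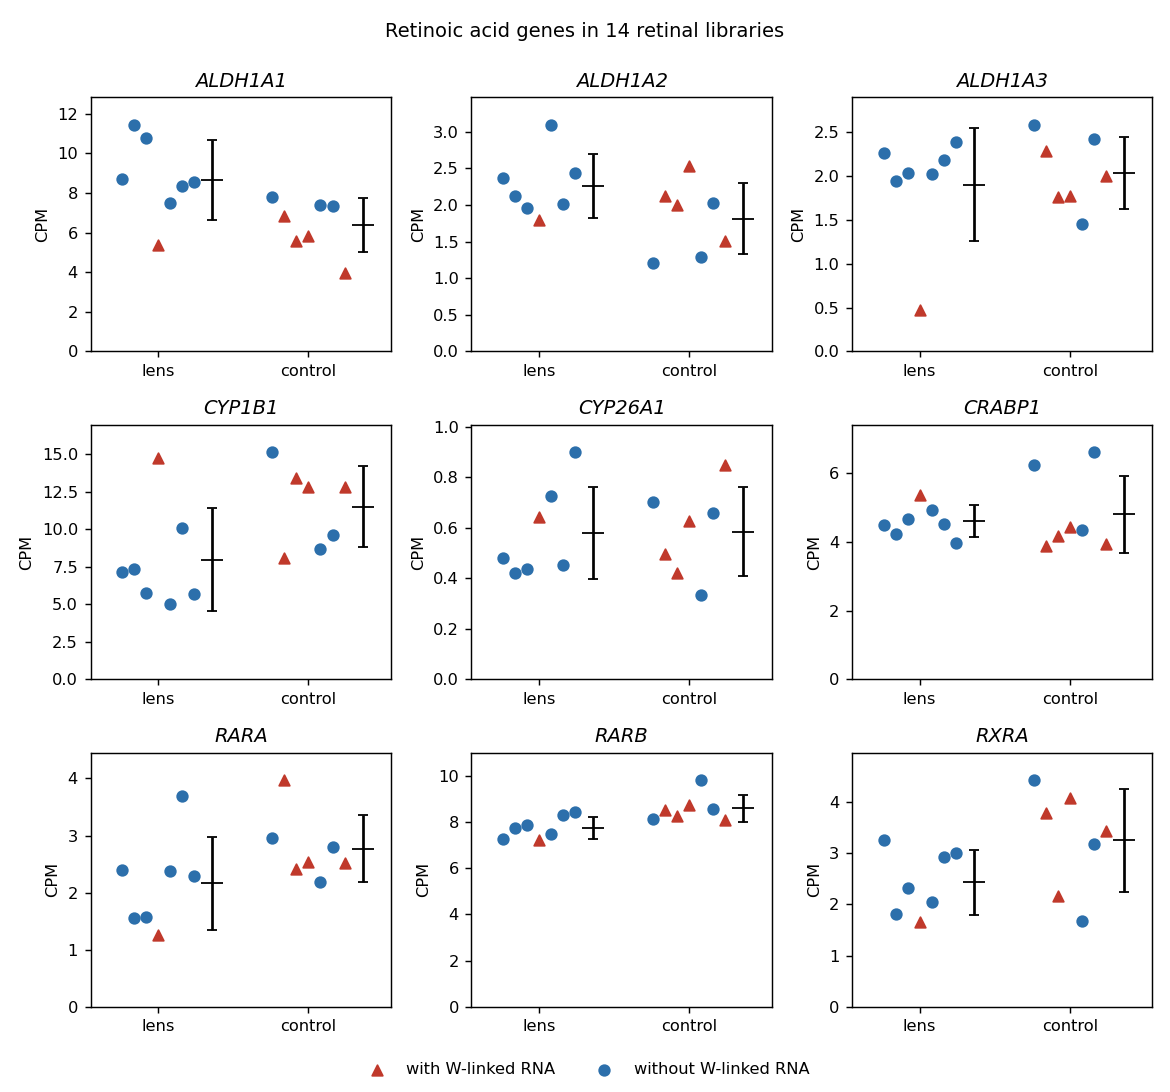
CPM of each of the 9 genes in every library, lens on the left and control on the right of each panel, with triangles for libraries with W-linked RNA and circles for those without; bars give the mean and SD of each group (n = 7). ALDH1A1 of all libraries with W-linked RNA lies at or below 6.83 CPM, and ALDH1A3 of lens replicate 4 lies at 0.476 CPM, apart from the rest.

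ALDH1A1 encodes a retinaldehyde dehydrogenase that marks the dorsal retina of the embryo. It spans 35905454 to 35958940 on the minus strand of chromosome Z, and LOC112530584 overlaps it on the other strand with a mean of 0.055 CPM in lens and 0.031 CPM in control libraries. Its level was 5.38 to 11.4 CPM in lens libraries, with a median of 8.55 CPM, and 3.95 to 7.77 CPM in control libraries, with a median of 6.83 CPM. Of the 7 lens libraries 5 lay above every control, lens replicate 5 lay among the controls, and lens replicate 4, the one with W-linked RNA, lay below the control median. Lens over control gave a log2 fold change of 0.38 (SE 0.14, 95% interval 0.08 to 0.68; limma adjusted p = 0.258), while the median over 665 Z-linked genes was 0.17. Adjusted for W-linked RNA, ALDH1A1 stood at 0.17 (SE 0.12) and the Z-linked median at -0.0036, and in the W-negative set ALDH1A1 stood at 0.25 (SE 0.12; limma adjusted p = 0.625). The 6 dorsal retina markers listed summed to 15.7 to 22.2 CPM in lens and 18.3 to 32.9 CPM in control libraries. Of the 5 tested none passed, and all 5 had negative fold changes for lens over control, where 63.3% of all genes tested did.

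Sorted by W-linked RNA, the ALDH1A1 levels did not overlap. The 5 libraries with W-linked RNA held 5.38 CPM in the lens library and 3.95, 5.57, 5.84 and 6.83 CPM in the 4 control libraries. In the W-negative set the 6 lens libraries held 7.49 to 11.4 CPM, and the 3 control libraries 7.36, 7.40 and 7.77 CPM. The means were 5.51 ± 1.04 CPM in libraries with W-linked RNA (SD, n = 5) and 8.65 ± 1.49 CPM in those without (SD, n = 9), a ratio of 0.638. With treatment in the model, ALDH1A1 was lower in libraries with W-linked RNA, with a log2 fold change of -0.49 (SE 0.12, 95% interval -0.75 to -0.22; limma adjusted p = 0.0411). It was lower in 5 of 5 libraries than in any of the other 9.

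This difference lay within the range of other Z-linked genes. Their median log2 fold change was -0.37, with quartiles at -0.56 and -0.18, and 52.0% of the 665 Z-linked genes tested passed, against 0.213% of autosomal genes. The groups did not overlap for 47.2% of Z-linked genes. ALDH1A1 was the 1 of 9 members that passed this comparison and the 1 whose groups did not overlap, where 2.64% of all genes tested passed and 2.36% did not overlap. At an unadjusted p under 0.05 there were 2 of 9, with ALDH1A3, where 10.6% of all genes were. ALDH1A1 stood at -0.40 in the 7 control libraries alone, where it no longer passed (limma adjusted p = 0.389) and 32.8% of Z-linked genes did. The call was also lost without lens replicate 1, 3, 4 or 7 or control replicate 1, 3, 5, 6 or 7, with log2 fold changes of -0.55 to -0.40 and limma adjusted p = 0.0121 to 0.304 over all such omissions.

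**Figure D2:**
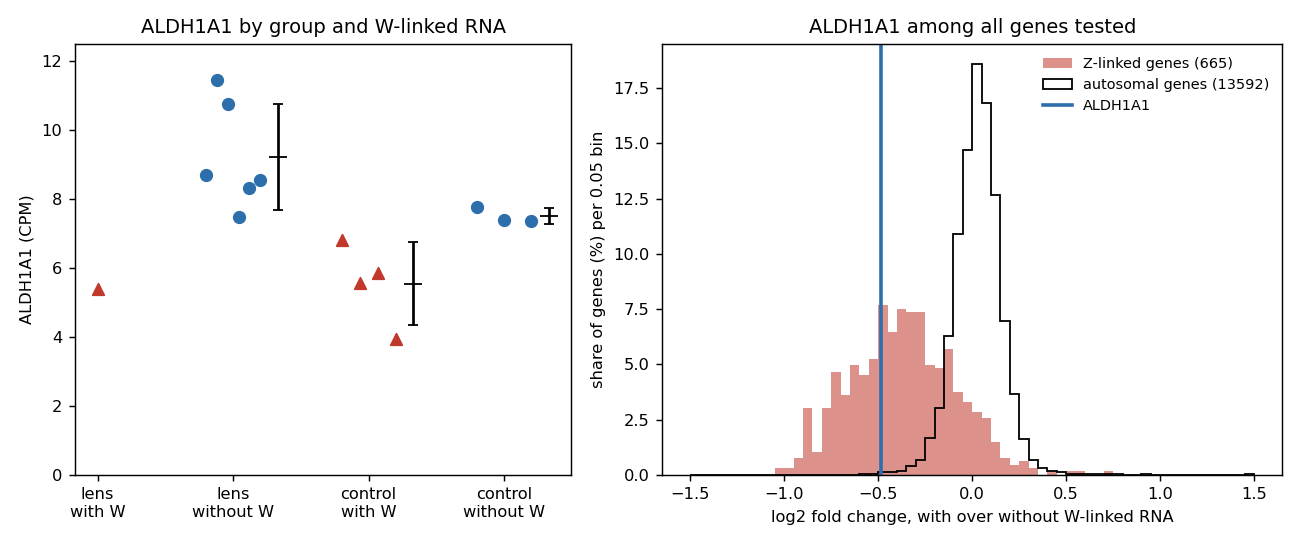
Left, ALDH1A1 in CPM by treatment and W-linked RNA, with each library as a point and the mean and SD where there is more than 1 library. Right, the share of genes by log2 fold change of libraries with over without W-linked RNA, for 665 Z-linked and 13592 autosomal genes (values past the axis are placed in the outermost bins); the line at -0.49 marks ALDH1A1, near the Z-linked median of -0.37.

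ALDH1A2, the retinaldehyde dehydrogenase for which the chick choroid is known, spans 7557497 to 7611704 on chromosome 10. Its level was 1.79 to 3.10 CPM in lens libraries (median 2.13 CPM) and 1.21 to 2.54 CPM in control libraries (median 1.997 CPM). The groups overlapped over most of their range, and the lowest levels, 1.21 and 1.29 CPM, belonged to control replicates 1 and 5. ALDH1A2 had a log2 fold change of 0.22 (SE 0.12, 95% interval -0.02 to 0.46; limma adjusted p = 0.416) and 0.26 with W-linked RNA as a covariate. In the W-negative set the mean was 2.33 ± 0.419 CPM in lens (SD, n = 6) and 1.51 ± 0.454 CPM in control libraries (SD, n = 3), a log2 fold change of 0.41 (SE 0.14; unadjusted p = 0.0106 and adjusted p = 0.465 by limma). In the control libraries with W-linked RNA the mean was 2.04 ± 0.421 CPM (SD, n = 4), and the 1 such lens library held 1.79 CPM. The choroid and connective tissue markers summed to a median of 1.62 CPM in lens and 1.96 CPM in control libraries, but the 2 that were tested went opposite ways and neither passed. COL3A1, a fibrillar collagen, averaged 0.870 ± 0.228 CPM in lens and 0.684 ± 0.193 CPM in control libraries, and ACTA2, a smooth muscle actin, 0.468 ± 0.153 CPM in lens and 0.867 ± 0.282 CPM in control libraries (SD, n = 7 each). COL3A1 was lowest in control replicates 5 (0.413 CPM) and 1 (0.478 CPM), the libraries with the lowest ALDH1A2. ACTA2 went the other way and was highest in the same replicates 5 (1.16 CPM) and 1 (1.15 CPM). The summed markers stood at 2.13 CPM in control replicate 1 and 1.70 CPM in control replicate 5, with a median of 1.69 CPM over all libraries. COL3A1 itself was highest in lens replicate 4 (1.18 CPM), the lens library with the lowest ALDH1A2. The part of choroid in the ALDH1A2 levels was not tested. A transcript on the opposite strand, LOC107052129, overlaps ALDH1A2 and averaged 0.642 ± 0.230 CPM in lens and 0.525 ± 0.216 CPM in control libraries (SD, n = 7 each), and whether the counting used strand is not given in the sources used here.

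ALDH1A3, the dehydrogenase of the ventral embryonic retina, spans 17875745 to 17910715 on chromosome 10. It was at 0.476 to 2.38 CPM in lens libraries (median 2.03 CPM) and at 1.44 to 2.58 CPM in control libraries (median 1.99 CPM), with full overlap apart from lens replicate 4. That library held 17 reads of ALDH1A3, or 0.476 CPM, while the next lowest lens library held 1.94 CPM. Without it, the remaining 6 lens libraries averaged 2.13 ± 0.166 CPM, and the SD was 0.694 times that expected from counting alone. ALDH1A3 had a log2 fold change of -0.10 (SE 0.15, 95% interval -0.42 to 0.23; limma adjusted p = 0.814) with all libraries and 0.06 without lens replicate 4. The 4 listed ventral markers summed to 73.8 CPM in lens replicate 4, within the 64.6 to 83.8 CPM of all lens libraries. EPHB2 made up 71.1 CPM of that sum. VAX1, a ventral transcription factor, stood at 0.196 CPM there against 0.105 to 0.584 CPM over the lens group. BMPR1B stood at 2.21 CPM against 2.15 to 4.38 CPM, and EPHB3 at 0.252 CPM, the highest of the lens group.

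Between libraries with and without W-linked RNA, ALDH1A3 averaged 1.65 ± 0.691 CPM (SD, n = 5) and 2.14 ± 0.334 CPM (SD, n = 9). This gave a log2 fold change of -0.41 (SE 0.16; unadjusted p = 0.0161 and adjusted p = 0.288 by limma). It rested on lens replicate 4, without which it was -0.08. ALDH1A3 passed this comparison in 1 alternative, when control replicate 5 was left out (-0.58, limma adjusted p = 0.0287). Apart from ALDH1A1, ALDH1A3 and CYP1B1, the members stood between -0.18 (CRABP1) and 0.11 (ALDH1A2) in this comparison.

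CYP1B1, a cytochrome P450 that can oxidise retinol to retinoic acid in the chick embryo, spans 32039524 to 32045737 on chromosome 3. Its lens libraries lay at 4.99 to 14.8 CPM with a median of 7.13 CPM, and its control libraries at 8.06 to 15.1 CPM with a median of 12.8 CPM. Of the 7 lens libraries 5 lay below every control, and the exceptions were lens replicates 4 (14.8 CPM) and 6 (10.1 CPM). The means were 7.96 ± 3.44 CPM in lens and 11.5 ± 2.70 CPM in control libraries (SD, n = 7 each), and these SDs were 7.43 and 4.85 times the counting error, the widest spread among the 9 genes. CYP1B1 had a log2 fold change of -0.53 (SE 0.19, 95% interval -0.92 to -0.14; limma adjusted p = 0.232).

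Adjusted for W-linked RNA, the log2 fold change of CYP1B1 was -0.35 (SE 0.19), and in the W-negative set it was -0.63 (SE 0.19; unadjusted p = 0.00525 and adjusted p = 0.396 by limma). In those 9 libraries the means were 6.82 ± 1.84 CPM in lens (SD, n = 6) and 11.1 ± 3.49 CPM in control libraries (SD, n = 3). CYP1B1 averaged 12.4 ± 2.54 CPM in libraries with W-linked RNA (SD, n = 5) and 8.26 ± 3.13 CPM in those without (SD, n = 9), and this difference did not pass (log2 fold change 0.41, limma adjusted p = 0.495). Its lens difference was negative under all 24 alternatives, with limma adjusted p = 0.122 to 0.506.

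CYP26A1 encodes the enzyme that hydroxylates retinoic acid for removal, and its gene is itself switched on by retinoic acid. It spans 21525291 to 21528394 on chromosome 6, next to its relative CYP26C1. Levels were low, with 13 to 37 reads per library. They were 0.420 to 0.899 CPM in lens and 0.335 to 0.849 CPM in control libraries, with medians of 0.479 CPM in lens and 0.628 CPM in control libraries. The means were 0.579 ± 0.182 CPM in lens and 0.584 ± 0.177 CPM in control libraries (SD, n = 7 each), and the SDs were 1.46 and 1.41 times the counting error. CYP26A1 had a log2 fold change of -0.0045 (SE 0.09, 95% interval -0.18 to 0.18; limma adjusted p = 0.991), and its sign turned in 14 of 24 alternatives.

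CRABP1, which holds retinoic acid in the cytoplasm, spans 4148571 to 4161468 on chromosome 10. It lay at 3.96 to 5.38 CPM in lens libraries (median 4.54 CPM) and at 3.90 to 6.62 CPM in control libraries (median 4.36 CPM). The lens values fell inside the control range, and the highest levels were those of control replicates 1 and 6, at 6.24 and 6.62 CPM. CRABP1 had a log2 fold change of -0.04 (SE 0.11, 95% interval -0.26 to 0.19; limma adjusted p = 0.911). In the W-negative set, which includes both of these controls, it was -0.29 (unadjusted p = 0.0399 and adjusted p = 0.605 by limma).

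**Figure D3:**
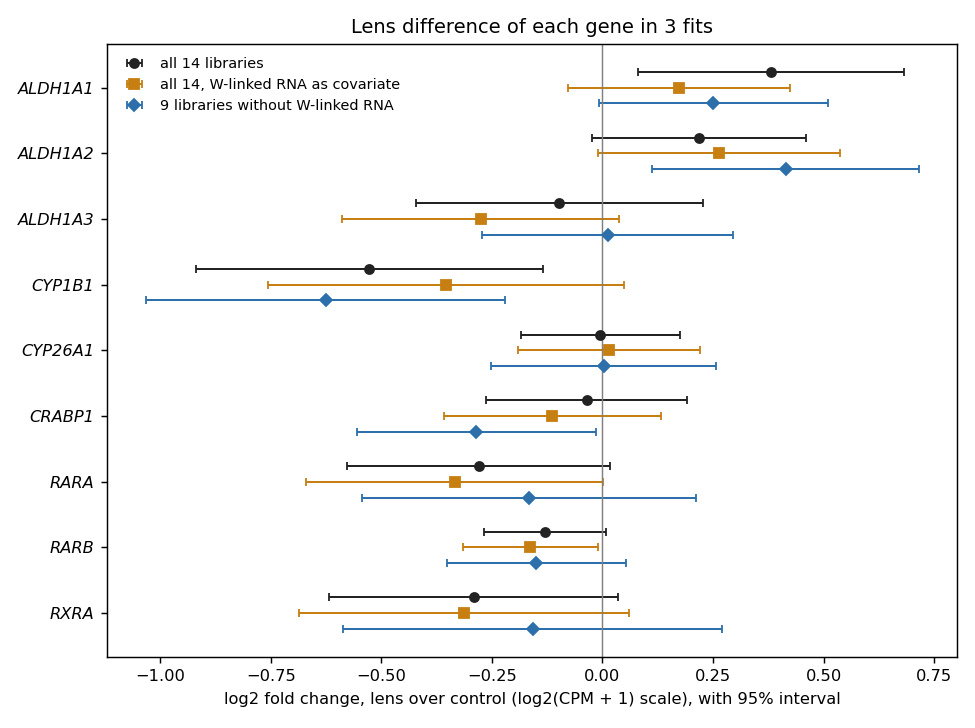
Log2 fold change of lens over control for each gene, on the log2(CPM + 1) scale with 95% intervals, from all 14 libraries, from the same libraries with W-linked RNA in the model, and from the 9 libraries that lack it. ALDH1A1 moves towards 0 with the covariate (0.38 to 0.17), and ALDH1A2 and CYP1B1 lie farthest from 0 in the last of these (0.41 and -0.63).

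The receptors had lower mean levels in lens retinas, and none passed. RARB, a receptor whose gene is also a classical target of retinoic acid, spans 37462374 to 37784740 on chromosome 2. It lay at 7.20 to 8.43 CPM in lens libraries (median 7.74 CPM) and at 8.07 to 9.82 CPM in control libraries (median 8.53 CPM). All 7 lens libraries lay below the control median and 5 of them below every control. The means were 7.75 ± 0.482 CPM in lens and 8.59 ± 0.598 CPM in control libraries (SD, n = 7 each), and their SDs were 1.06 and 1.25 times the counting error. The log2 fold change was -0.13 (SE 0.07, 95% interval -0.27 to 0.0074; limma adjusted p = 0.396), -0.16 after adjustment for W-linked RNA and -0.15 in the W-negative set.

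RARA, the most widely expressed retinoic acid receptor of vertebrates, spans 7222549 to 7232609 on chromosome 27. Its lens libraries lay at 1.26 to 3.70 CPM (median 2.28 CPM) and its control libraries at 2.19 to 3.98 CPM (median 2.54 CPM). Lens replicate 6 was high in the lens group and control replicate 2 in the control group, and 6 of 7 lens libraries lay below the control median. The log2 fold change was -0.28 (SE 0.14, 95% interval -0.58 to 0.02; limma adjusted p = 0.398).

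RXRA, the partner with which retinoic acid receptors bind DNA, spans 7577180 to 7655317 on chromosome 17. It lay at 1.65 to 3.26 CPM in lens libraries (median 2.32 CPM) and at 1.67 to 4.43 CPM in control libraries (median 3.44 CPM), and all 7 lens libraries lay below the control median. The log2 fold change was -0.29 (SE 0.16, 95% interval -0.62 to 0.04; limma adjusted p = 0.422). RXRA overlaps LOC101750711 on the same strand and LOC112529974 on the other, and its values were whole multiples of the step worth 1 read, within 0.02, in 0 of 14 libraries. LOC101750711 averaged 0.766 ± 0.354 CPM in lens and 1.001 ± 0.502 CPM in control libraries (SD, n = 7 each), lower on average in lens libraries like RXRA, and LOC112529974 0.0222 CPM in lens and 0.0398 CPM in control libraries. For the other 8 genes they were whole in all 14, and how reads shared between genes were counted is not given in the sources used here.

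Among the 9 members, RARA and RXRA were correlated with the share of reads that fell on listed genes. This share is given by the sum of each column (303455 to 333242 CPM). Each listed gene is part of that sum, so genes rise with it on average. The permutation compares with no correlation, so its p-values do not set RARA and RXRA apart from genes in general. Other genes were not put through this correlation, so the share of all genes that rise with the sum is not known. For RARA Pearson's r was 0.685 and Spearman's rho 0.754 over 14 libraries (permutation p = 0.00685 and 0.00267, adjusted over 9 genes 0.0403 and 0.0240). It was 0.791 without the 2 libraries farthest from the median sum, 0.921 within lens and 0.330 within control libraries. For RXRA r was 0.668 and rho 0.653 (permutation p = 0.00896 and 0.0133, adjusted 0.0403 and 0.0596), 0.538 without the 2 farthest libraries, 0.871 within lens and 0.453 within control libraries. The sums averaged 312078 ± 7106 CPM in lens and 318338 ± 9116 CPM in control libraries (SD, n = 7 each), and their part in the receptor differences was not tested. When every column was scaled by its median ratio, which does not make the sums equal, RARA and RXRA both stood at -0.25 (lens over control, log2). Over all 24 alternatives, scaling to the same sum among them, RARA stood at -0.43 to -0.12 and RXRA at -0.40 to -0.15.

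Among the 36 pairs of the 9 genes, 0 were correlated across libraries at an adjusted permutation p under 0.05. The pairs with the smallest unadjusted p were ALDH1A3 with RXRA, RARA with RXRA, and ALDH1A1 with CYP1B1. ALDH1A3 and RXRA gave r = 0.622 and rho = 0.640 over 14 libraries (permutation p = 0.0038 and 0.0164, adjusted 0.101 and 0.246) and r = 0.458 without the 2 libraries farthest in ALDH1A3. RARA and RXRA gave r = 0.691 and rho = 0.767 (permutation p = 0.0056 and 0.00196, adjusted 0.101 and 0.0706) and r = 0.565 without the 2 libraries farthest in RARA. ALDH1A1 and CYP1B1 ran in opposite directions, with r = -0.660 and rho = -0.622 (permutation p = 0.00937 and 0.0205, adjusted 0.112 and 0.246), r = -0.686 without the 2 libraries farthest in ALDH1A1, -0.601 within lens, -0.351 within control and -0.334 in the W-negative set.

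The genes whose pattern was most like each member were sought among 8984 or 8985 named genes with a mean of at least 2 CPM, after the mean of each treatment by W-linked RNA class was taken off. Lens replicate 4 is alone in its class and therefore adds nothing. The closest was RARA with MIF (r = 0.982 over 14 libraries) and ACTC2L (0.981), followed by ALDH1A3 with ULK1 (0.960) and RIT1 (0.922). CYP26A1 was most like PDE7B (0.944) and SFMBT2 (0.929), CYP1B1 like KIT (0.926) and PIK3C3 (0.913), and RXRA like KLHL12 (0.917) and PKP4 (0.917). CRABP1 was most like LMAN1 (0.914) and AKAP7 (0.894), ALDH1A2 like PRSS12 (0.910) and DDX6 (0.886), RARB like PTPRJ (0.854) and GHITM (0.832), and ALDH1A1 like RASGEF1B (0.840) and ITGA8 (0.827). These are the highest of all candidate values and are given as a description, with no test. Without the 2 libraries farthest in the member, r ran from 0.675 (CRABP1 with AKAP7) to 0.9655 (RARA with ACTC2L).

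The lens difference was also compared between W-linked RNA classes, a comparison that rests on lens replicate 4 alone. That class holds 1 library, so its p-values assume that this library varies like those of the other classes, and its ALDH1A3 stands far from the rest. By limma 0 of 9 members passed (0 of 14259 genes). ALDH1A3, CRABP1 and CYP1B1 had an unadjusted p under 0.05, 3 of 9 against 6.69% of all genes, and nothing is read from this count. Their differences between the classes, in log2 units, were -1.01, 0.60 and 0.95 (limma adjusted p = 0.684, 0.724 and 0.724).

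The wider retinoid genes were read from the same fit by role. Of 52 symbols 45 were listed and 41 passed the filter on low values. RBP4 and NCOA2 were lower in lens retinas, and the other 39 did not pass (2 of 41, where 0.0701% of all genes were lower and passed). At an unadjusted p under 0.05 there were 14, all lower, where 10.5% of all genes were lower by that criterion. Negative fold changes were found for 36 of 41 genes and for 63.3% of all genes tested, and the median was -0.16 against -0.04 over all genes. With W-linked RNA as a covariate 1 passed, NCOA2, and the median was -0.14. In the W-negative set none passed, and 5 had an unadjusted p under 0.05, all lower, where 636 of all 14259 genes were lower by that criterion. There the median was -0.09 and 27 of 41 were negative, against -0.0040 and 51.6% over all genes. With median ratio scaling 0 passed by limma, 32 of 41 were negative and 51.0% of all genes were. The 12 with an unadjusted p under 0.05 in that setting were 11 lower and 1 higher, where 991 and 915 of all 14259 genes were by that criterion. Without lens replicate 2, 6 or 7 or control replicate 2, 1 wider gene passed, and without any of the other 10 libraries none did. The list was drawn up with results for RBP4 and NCOA2 known.

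RBP4, the carrier of retinol in blood, also lies on chromosome Z. It held 51.0 to 95.2 CPM in lens and 90.8 to 176.8 CPM in control libraries, with a log2 fold change of -0.84 (limma adjusted p = 0.0413). It did not pass between libraries with and without W-linked RNA, where its log2 fold change was 0.09. Of the 8 pigment epithelium markers tested, none passed and 7 had negative fold changes, where 63.3% of all genes tested did. RPE65 averaged 2.62 ± 1.38 CPM in lens and 3.69 ± 1.83 CPM in control libraries, PMEL 0.229 ± 0.156 CPM in lens and 0.407 ± 0.238 CPM in control libraries, and DCT 0.691 ± 0.311 CPM in lens and 0.951 ± 0.358 CPM in control libraries (SD, n = 7 each). OCA2 went the other way, at 12.4 ± 1.39 CPM in lens and 12.1 ± 1.76 CPM in control libraries (SD, n = 7 each). TYRP1 averaged 0.596 ± 0.304 CPM in lens and 0.632 ± 0.333 CPM in control libraries (SD, n = 7 each). The part of pigment epithelium in the RBP4 difference was not tested. Among the other carriers and storage genes, the values were -0.21 for LRAT, which esterifies retinol, -0.23 for STRA6, the RBP4 receptor, and -0.16 for RLBP1, a carrier of retinal in Müller glia. STRA6 averaged 0.699 CPM in lens and 0.970 CPM in control libraries, low levels at which the log2(CPM + 1) scale understates fold changes. RBP2 and RBP7 did not pass the filter, and 0 of the remaining genes of this role passed the test.

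Of 11 tested genes that convert retinol and retinal, 0 passed by limma and 2 had an unadjusted p under 0.05. BCO2, which cleaves carotenoids, averaged 31.4 ± 1.90 CPM in lens and 34.2 ± 2.07 CPM in control libraries (SD, n = 7 each), and RETSAT, a retinol saturase, 2.33 ± 0.530 CPM in lens and 3.02 ± 0.677 CPM in control libraries. Their log2 fold changes were -0.12 and -0.27, and those of RDH10, the main retinol dehydrogenase upstream of retinoic acid in embryos, and ADH1C were -0.17 and -0.12. ADH1C averaged 0.238 CPM in lens and 0.346 CPM in control libraries, low levels at which the log2(CPM + 1) scale understates fold changes. DHRS3, which turns retinal back to retinol and is switched on by retinoic acid, averaged 12.8 ± 2.34 CPM in lens and 12.9 ± 2.21 CPM in control libraries (log2 fold change -0.02, 95% interval -0.26 to 0.23). Its sign turned with median ratio scaling (0.03), quantile normalization (0.01) and in the W-negative set (0.04).

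In the main fit of all 14 libraries, the relatives of the members also gave 0 calls by limma, with 0 at an unadjusted p under 0.05. CYP26C1 and CYP26B1 stood at -0.10 and -0.0098. CYP26C1 averaged 0.207 CPM in lens and 0.297 CPM in control libraries, and CYP26B1 0.215 CPM in lens and 0.231 CPM in control libraries. At such low levels the log2(CPM + 1) scale understates fold changes. RXRG, a receptor of cone photoreceptors, stood at -0.18, PPARD at -0.09, and FABP5, which delivers retinoic acid to PPARD, at 0.13. In 2 alternatives FABP5 was higher at an unadjusted limma p under 0.05, with median ratio scaling (0.18) and without lens replicate 4 (0.16). By that criterion 915 and 584 of all 14259 genes were higher in these settings. CRABP2 did not pass the filter and was at 0.0280 to 0.0649 CPM in lens and 0.0526 to 0.183 CPM in control libraries, near the floor of 3 reads. RARG and RXRB are not analysed here.

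NCOA2, a coactivator of nuclear receptors, averaged 55.1 ± 5.97 CPM in lens and 72.4 ± 6.36 CPM in control libraries (SD, n = 7 each; log2 fold change -0.39, limma adjusted p = 0.0413). Of the other 9 cofactors none passed. With NCOA2, 7 of 10 were lower at an unadjusted p under 0.05, where 10.5% of all genes were. Negative fold changes were found for 10 of 10 (9 of 10 with median ratio scaling or quantile normalization), where 63.3% of all genes had them. NCOA2 was listed with its result known, so its part in these counts was fixed beforehand. Adjusted for W-linked RNA the count of 7 became 4, where 1156 of all 14259 genes were lower by that criterion. It was 1 in the W-negative set, where 636 of 14259 were. CREBBP and EP300, acetyltransferases, stood at -0.31 and -0.21. Among genes that respond to retinoic acid in other tissues, 0 of 8 tested passed by limma and 3 were lower at an unadjusted p under 0.05, the same criterion that 10.5% of all genes met. These were the transcription factors MEIS1 (-0.22), NR2F1 (-0.32) and MEIS2 (-0.18), and RARRES2 stood at -0.25. The count of 3 was 4 with the covariate and 1 in the W-negative set, where 1156 and 636 of all 14259 genes were lower by that criterion.

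**Figure D4:**
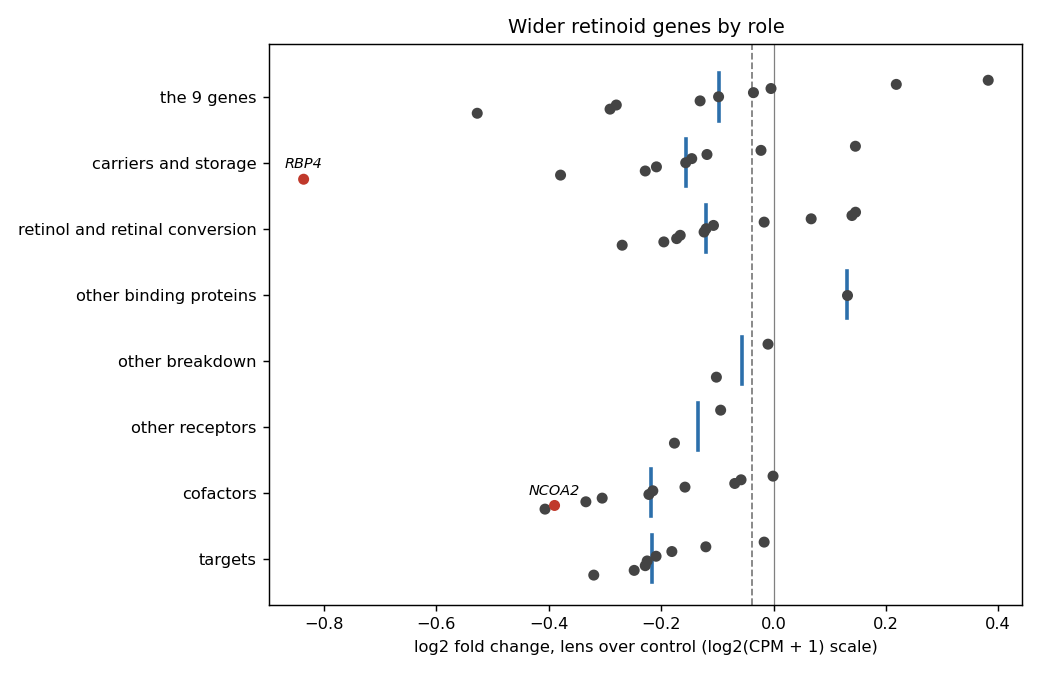
Log2 fold change of lens over control, on the log2(CPM + 1) scale, for the 9 genes and for the tested wider genes of each role, each point a gene; red points passed at an adjusted p under 0.05, blue bars are medians of each row and the dashed line is the median of all genes tested (-0.04). RBP4 and NCOA2 are the 2 genes that passed, and all 10 cofactors lie at or below 0.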

How the data were processed

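The table holds 14 retinal libraries made with a stranded total RNA kit after depletion of ribosomal RNA, per the labels' protocols. Per the submitters' processing notes, the tools were STAR and Partek and the genome build GRCg6a; versions, counting and use of strand are not given in the sources used here. The deposited values are CPM plus 0.0001, judged by the values themselves. Once the offset was removed, 92.8% to 93.6% of values up to 200 reads in a library were whole multiples, to within 0.02, of the step worth 1 read. Starts and ends are those of the table, and chromosome names follow the GRCg7b assembly (15419 of 18631 symbols matched).

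Values were analysed as log2(CPM + 1) with the deposited scaling, a scale that understates fold changes of low genes. Genes entered the tests with 7 or more libraries at 0.5 CPM relative to the column sum, equal to 0.152 to 0.167 deposited CPM. Differences between lens and control came from limma 3.58.1 under R 4.3.3 (two-sided, eBayes with trend). Benjamini-Hochberg adjustment covered every gene tested, and the threshold was 0.05. W-linked RNA was called where log2(CPM + 1) of HINTW exceeded 2, and its comparison had treatment as a covariate. Correlations used 100000 permutations, two-sided. Adjusted p-values over these comparisons come from limma unless a permutation is named. The fits were tested on simulated data. Permutations used SciPy 1.17.1 and NumPy 2.4.6.

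The 9 genes, the lists and the alternatives were chosen with earlier results of these data known. The text names all 9 members, their 2 most similar genes, wider genes that passed and up to 4 per role with the smallest p. A gene that this rule would name is not reported here. DHRS3, RBP2, RBP7, CRABP2 and the single markers fall outside that rule and were named after their values were seen. Alternatives were pseudocounts of 0.1 and 5, no filter, other scalings, covariates, subsets of libraries and leaving out each library. Voom on values divided by the step and 2 interaction fits were chosen after seeing the data.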

Additional observations from a re-analysis of the deposited data

Results flagged for a closer look

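In 3 of the 18 groups of 7 libraries (9 genes, lens and control), 1 library stood far from the rest by its gap to the nearest library relative to the group's range. Chance flags about 1 in 20 groups, and over all genes tested 7.86% of lens and 6.48% of control groups were flagged. ALDH1A3 was lowest in lens replicate 4, at 0.476 CPM against 1.94 CPM in the nearest lens library. That library was the low outlier of the lens group for 1.44% of all genes tested. It is also the 1 lens library with W-linked RNA. It held the highest CYP1B1 and CRABP1 and the lowest ALDH1A1, ALDH1A2, RARA, RARB and RXRA of the lens group. Only for CYP26A1 was it at neither end.

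RARA was highest in control replicate 2, at 3.98 CPM against 2.96 CPM in the nearest control. That library was the high outlier for 2.24% of all genes, and its column sum of 326813 CPM was among the highest. RARB was highest in control replicate 5, at 9.82 CPM against 8.74 CPM in the nearest control, a library that was the high outlier for 0.309% of genes.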

How the results depend on the processing

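No paired analysis was possible because lens and control sample codes have no number in common. The count of 0 members between lens and control stayed at 0 under all 24 alternatives by limma. The 1 member called by W-linked RNA became 0 with a pseudocount of 5, without the filter, among control libraries alone and by voom, and 0 to 1 without single libraries. The count of 2 wider genes became 0 without the filter, with median ratio scaling, with quantile normalization and in the 9 libraries that lack W-linked RNA. It became 1 with W-linked RNA as a covariate, with columns scaled to the same sum and by voom, and 0 to 1 without single libraries.

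Signs turned for members near 0. For lens over control, CYP26A1 stood at 0.015 with median ratio scaling, 0.0061 with the same sum, 0.049 with quantile normalization, 0.016 with W-linked RNA as a covariate, 0.0027 among the 9 libraries, 0.012 by voom and -0.050 to 0.034 without single libraries. CRABP1 stood at 0.0067 with median ratio scaling, 0.029 with quantile normalization and -0.073 to 0.033 without single libraries. ALDH1A3 stood at 0.013 among the 9 libraries and -0.15 to 0.057 without single libraries. By W-linked RNA, RARA and RXRA stood at 0.069 and 0.13 among controls, and at -0.23 to 0.069 and -0.25 to 0.13 without single libraries, and CYP26A1 at -0.018 to 0.088. The causes were not tested.

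The count test planned for recovered reads was not run, since too few values were whole. At 13 to 37 reads per library, depth limits CYP26A1.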
